A study of Mus musculus with 2 samples.

Results

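The non-classical MHC class I genes H2-Q4, H2-Q6, H2-Q7, H2-T10, H2-T22, H2-T23 and H2-M3 were taken by name from the deposited gene table, where all 7 were found among 17145 genes. RNA was measured in primary hepatic stellate cells of mouse liver with the genotype Adar1f/f/Cre-ER, that is, with floxed alleles of the RNA-editing enzyme ADAR1 and a recombinase that 4-hydroxytamoxifen (4-OHT) activates. One group received vehicle and the other 100 nM 4-OHT, and both were culture-activated for 4 days. Each group was 1 library (n = 1), so no spread between replicates exists and every difference below lies between these libraries only. Both libraries carried the same genotype and only 1 received the drug, so effects of 4-OHT itself and of the recombination cannot be told apart. The labels give neither the promoter that drives Cre-ER, nor the strain and thus the MHC haplotype, nor the number or age of the mice.

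Classical MHC class I molecules display peptides from inside the cell to CD8 T cells on nearly every cell. The non-classical relatives, encoded in the Q, T and M regions of the same locus, vary less between individuals and have more specialised partners: natural killer cells, gamma delta T cells and T cells that see bacterial peptides. Most of them pair with the light chain beta-2 microglobulin (B2m). The promoters of class I genes are known to carry an NF-kB site and, next to it, an interferon-stimulated response element (ISRE), to which interferon regulatory factors bind.

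That pair of motifs was looked for in the RefSeq promoters (GRCm38.p6, 250 bases before to 50 after the start), which held 6 of the 7 genes, all but H2-T10. The stretches of 130 bases around the ISRE match are printed to show what the genes share, 5′ to 3′ on the strand of the gene. Capitals mark matches on either strand to the ISRE letters GAAANNGAA or GAANNGAAA and to GGGANTNNC, the first 9 bases of an NF-kB site.
H2-Q4, chr17:35379403-35379532, plus strand: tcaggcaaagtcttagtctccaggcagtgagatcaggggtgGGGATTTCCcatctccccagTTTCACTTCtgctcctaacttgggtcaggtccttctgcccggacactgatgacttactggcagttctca
H2-Q6, chr17:35424637-35424766, plus strand: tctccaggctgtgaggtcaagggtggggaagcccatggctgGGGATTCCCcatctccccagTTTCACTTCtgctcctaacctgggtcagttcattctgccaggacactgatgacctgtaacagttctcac
H2-Q7, chr17:35438981-35439110, plus strand: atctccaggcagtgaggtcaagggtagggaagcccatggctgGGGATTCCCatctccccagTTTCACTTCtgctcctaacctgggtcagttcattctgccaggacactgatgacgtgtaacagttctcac
H2-T22, chr17:36042863-36042992, minus strand: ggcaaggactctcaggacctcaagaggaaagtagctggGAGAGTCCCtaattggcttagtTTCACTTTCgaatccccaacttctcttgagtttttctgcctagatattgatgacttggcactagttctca
H2-T23, chr17:36032756-36032885, minus strand: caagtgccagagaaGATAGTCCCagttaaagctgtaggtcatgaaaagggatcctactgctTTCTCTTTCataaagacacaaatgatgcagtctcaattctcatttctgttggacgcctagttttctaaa
H2-M3, chr17:37270072-37270201, plus strand: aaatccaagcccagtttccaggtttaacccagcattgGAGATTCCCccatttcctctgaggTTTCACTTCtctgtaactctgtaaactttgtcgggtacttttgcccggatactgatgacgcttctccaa

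All 6 promoters held a match to one of the ISRE forms, as did 14.8% of 32851 promoters of this length in the table. The form GAAANNGAA was found in H2-T22 and H2-T23, beside 8.56% of all promoters, and GAANNGAAA in the other 4, beside 7.52%. The second form was added after the class I promoters had been seen, so its count is a description only. The NF-kB letters were found in all 6, beside 14.0% of all promoters, and did not overlap the ISRE match in any. In H2-Q4, H2-Q6, H2-Q7, H2-T22 and H2-M3 the NF-kB match began 19 to 24 bases before the ISRE match, and in H2-T23 it began 47 bases before. The annotation that gave the gene coordinates below starts H2-T23 further upstream, at 36032855 on the minus strand. By that annotation the ISRE match of H2-T23 lies inside the gene. The stretches of H2-Q6 and H2-Q7 are nearly the same letters. The CRE half-site TGACG, which also occurs in the X2 box, was found in 4 of the 6 beside 20.8% of all promoters. It was looked for anywhere in the promoter, so a match need not lie in an X2 box. Within the printed stretches it occurs only in H2-Q7 and H2-M3. The matches of H2-Q4 and H2-T22 lie outside their printed stretches, closer to or beyond the start. The gamma-activated site TTCNNNGAA was found in 1, H2-M3, beside 8.30%. The promoters of the classical genes H2-K1 and H2-D1 held the form GAANNGAAA and the NF-kB letters as well. A match is a run of letters and not evidence of binding.

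Levels are in FPKM, fragments per kilobase of transcript relative to the size of the library, and a gene is called higher or lower where 4-OHT and vehicle differed at least 2-fold. The labels name the cells as hepatic stellate cells, which store retinoids beside the liver sinusoids and turn into scar-forming cells in culture. Markers of macrophages and endothelium summed to more than those of stellate cells in both libraries. Macrophage markers, all 10 detected, summed to 5003 FPKM with vehicle and 3267 FPKM with 4-OHT, with Lyz2 at 3050 and 1353 FPKM and Clec4f at 144.3 and 201.8 FPKM. Of these 10, 1 was higher, Fcgr1, and 2 were lower. Stellate markers, 9 of 11 in the table, summed to 264.9 and 96.2 FPKM, with 4 of the 9 lower (3.49% of all genes that reached 1 FPKM were lower), and endothelial markers, 7 of 7, to 958.4 and 850.6 FPKM, with 2 lower. T and NK cell markers, 10 of 13 in the table, summed to 22.97 and 38.9 FPKM, with 1 higher (Gzmb, 0.3499 and 10.2 FPKM). Dendritic markers, 3 of 6, summed to 11.8 and 13.3 FPKM, mesothelial markers, 5 of 5, to 8.88 and 3.30 FPKM, with 2 lower of the 4 that reached 1 FPKM, hepatocyte markers, 1 of 5, to 1.41 and 0.334 FPKM, and B cell markers, 1 of 4, to 0.738 and 0.192 FPKM. None of the markers in the table was listed at 0. Leukocytes and endothelium express class I genes strongly, so the levels of the 7 genes are those of the mixture, in which fewer cells of a type and less RNA per cell cannot be told apart. The part of these cells in the differences was not tested. Adar, the floxed gene, was not analysed here, so the labels could not be checked against it.

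All 7 genes were at least 2-fold higher with 4-OHT, whereas this held for 5.78% of the 13571 genes that reached 1 FPKM in either library. Log2 changes below set 4-OHT over vehicle after 1 was added to each FPKM, so changes of genes with low values are understated. The median change of the 7 genes was 3.31, beside 0.03 over the 13571 genes, whose quartiles were −0.25 and 0.30. Of the 7 genes 6 were at least 4-fold higher, beside 2.17% of genes, and 4 were at least 8-fold higher, beside 1.07%. All 7 passed the minimum of 1 FPKM in the vehicle library already, so none entered through the 4-OHT library alone. Divided by the sum of all FPKM in its library, each gene remained at least 2-fold higher.

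**Figure D1:**
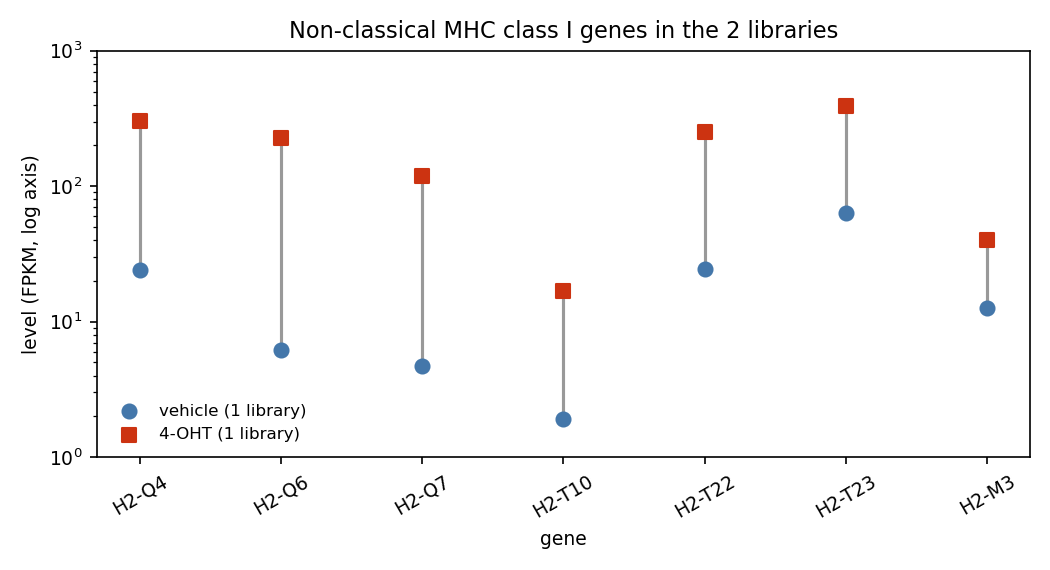
Level of each gene in FPKM (log axis) in the vehicle library (circles) and the 4-OHT library (squares), n = 1 library each, joined by a line. Every square lies above its circle; the longest lines belong to H2-Q6 and H2-Q7 and the shortest to H2-M3.

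The Q region showed the largest log2 changes. H2-Q6 (ENSMUSG00000073409.12, chr17:35424850-35430055, plus strand), which encodes a heavy chain of the Qa-2 antigen, stood at 6.19 FPKM in the vehicle library and at 227 FPKM in the 4-OHT library. Its log2 change of 4.98 placed it 43rd among the 13571 genes. The ratio was 36.6, with an exact 95% counting interval of 32.0 to 42.9. H2-Q7 (chr17:35439155-35443773, plus strand), another Qa-2 gene whose product is held in the membrane by a lipid anchor, had 4.67 FPKM in the vehicle library against 119 FPKM after 4-OHT, a log2 change of 4.40. Its ratio of 25.4 had an interval of 21.99 to 30.05. H2-Q4 (chr17:35379617-35385290, plus strand), which encodes the Qb-1 molecule, had 23.9 FPKM in the vehicle library against 304 FPKM after 4-OHT, a log2 change of 3.62 and a ratio of 12.8 (12.1 to 13.5). The 3 intervals do not overlap, but they take the fragments given to each gene as counted. H2-Q4 and H2-Q6 have 2 annotated transcripts each and H2-Q7 has 6, and the 3 genes share sequence. The order H2-Q6, H2-Q7, H2-Q4 is therefore not settled by these intervals. In level, H2-Q4 stood above H2-Q6 and H2-Q7 in both libraries.

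Genes of the T region were next. H2-T23 (chr17:36029773-36032855, minus strand) encodes Qa-1, which shows leader peptides of classical class I proteins to the receptor CD94/NKG2A of natural killer cells. It was the most abundant of the 7 in both libraries, at 63.4 FPKM in the vehicle library and 392 FPKM in the other, with a log2 change of 2.61 and a ratio of 6.18 (5.90 to 6.60). H2-T22 (chr17:36037128-36042747, minus strand), which gamma delta T cell receptors can bind directly, had 24.4 FPKM in the vehicle library against 250.3 FPKM after 4-OHT. Its log2 change was 3.31 and its ratio 10.3 (9.72 to 10.9). H2-T10 (chr17:36115876-36121465, minus strand), its close relative and also a ligand of gamma delta T cell receptors, was the lowest of the 7 in both libraries, at 1.90 FPKM in the vehicle library and 16.97 FPKM in the other. The annotation lists H2-T10 as a polymorphic pseudogene, intact in some strains only. Its log2 change of 2.63 was close to that of H2-T23, but its ratio of 8.91 (7.20 to 11.2) was above that of H2-T23, since the added 1 FPKM weighs more on a gene this low. The interval of H2-T10 overlapped that of H2-T22 but not that of H2-T23.

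In the M region, H2-M3 (ENSMUSG00000016206.6, chr17:37270220-37274484, plus strand) presents peptides that begin with formylmethionine, as bacterial and mitochondrial proteins do. With vehicle it was at 12.7 FPKM and with 4-OHT at 40.1 FPKM, with a log2 change of 1.59, the smallest of the 7. It has 1 annotated transcript, so its fragments could be recovered: 616 with vehicle and 1552 with 4-OHT. The ratio was 3.17 (2.90 to 3.50), and its interval lay below those of the other 6 genes.

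Depth differed between the libraries: per kilobase of effective length, 1 FPKM was worth 38.6 fragments in the vehicle library but 30.5 in the 4-OHT library. For genes with several transcripts the fragments depend on which transcript is taken, for H2-T10 between 96 and 236 with vehicle, and the shortest transcript was used so that intervals are wide. In the vehicle library the order of levels was H2-T23, H2-T22, H2-Q4, H2-M3, H2-Q6, H2-Q7 and H2-T10. There the counting intervals of H2-T22 (23.1 to 25.8 FPKM) and H2-Q4 (22.7 to 25.1 FPKM) overlapped, as did those of H2-Q6 (5.35 to 7.13) and H2-Q7 (4.00 to 5.42). In the 4-OHT library it was H2-T23, H2-Q4, H2-T22, H2-Q6, H2-Q7, H2-M3 and H2-T10, with no overlap between neighbours. H2-M3 thus stood above H2-Q6 and H2-Q7 with vehicle and below both with 4-OHT. Intervals cover counting error only, since copies made by PCR cannot be told from molecules, and leave out differences between animals or cultures. They also leave out error in how fragments were divided among transcripts and among genes alike in sequence.

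In the authors' deposited table all 7 genes were called higher at a q-value under 0.05, beside 1.72% of its 17145 genes. The authors' deposited q-value was 0.00466 for H2-Q4, H2-Q6, H2-Q7 and H2-T10, which were at the smallest p-value of the table (5e-05, shared by 273 genes). In the authors' deposited table it was 0.0125 for H2-M3, 0.0252 for H2-T23 and 0.0306 for H2-T22. Those values compare these libraries and not the conditions.

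Summed over the 7 genes, FPKM went from 137.1 with vehicle to 1349 with 4-OHT, a ratio of 9.84. The Q-region genes together went from 34.7 to 649.7 FPKM, a ratio of 18.7, and the T-region genes from 89.7 to 659.5 FPKM, a ratio of 7.35. The make-up of the family differed accordingly. Q-region genes made up 25.3% of the summed FPKM with vehicle and 48.2% with 4-OHT, while T-region genes made up 65.4% and 48.9%. H2-T23 alone made up 46.3% with vehicle and 29.1% with 4-OHT, H2-Q6 made up 4.52% and 16.8%, and H2-M3 made up 9.23% and 2.97%.

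**Figure D2:**
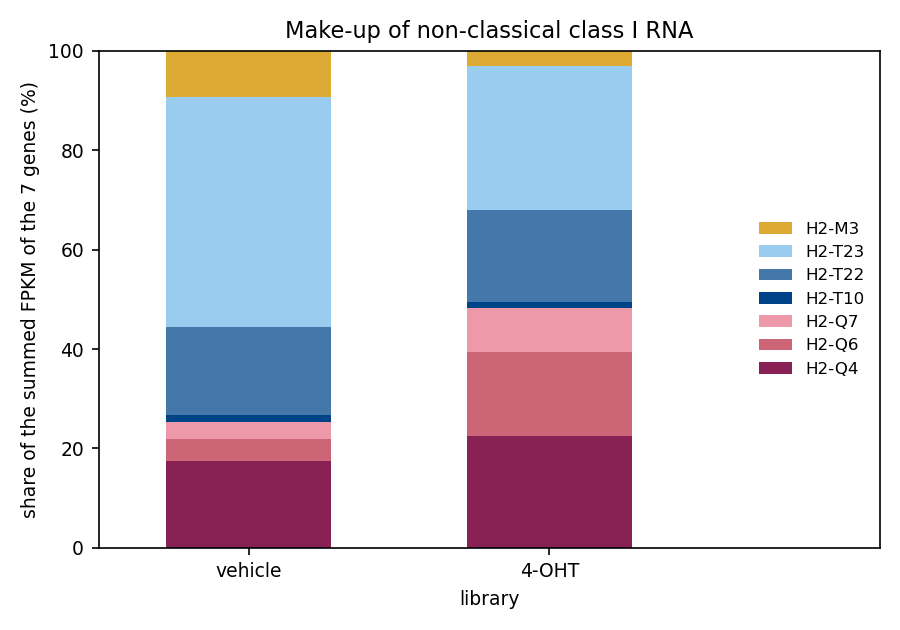
Share of each gene in the summed FPKM of the 7 genes (%, stacked to 100), in the vehicle and the 4-OHT library, n = 1 each. The Q-region genes at the bottom of the bar fill 25.3% with vehicle and 48.2% with 4-OHT, and H2-T23 shrinks from 46.3% to 29.1%.

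The genes are alike in sequence, which limits how surely fragments were divided among them. Over the coding sequence, H2-T10 and H2-T22 were 96.4% identical and H2-Q6 and H2-Q7 were 94.99% identical. H2-Q4 was 83.1% and 83.3% identical to H2-Q6 and H2-Q7, and the lowest identity of any pair was 57.1%. Of all windows of 50 bases in the longest coding transcript, 42.9% in H2-T10 and 44.7% in H2-T22 occurred in a transcript of another gene, mostly each other. The shares were 39.2% in H2-Q4, 35.0% in H2-Q6, 34.9% in H2-Q7 and 29.8% in H2-T23. Matches on either strand counted, so not all sharing is likeness between class I genes. In H2-Q4 the largest part, 16.1%, was shared with Gm11131, an antisense gene that overlaps it, and 7.68% with H2-Q6. Windows of H2-Q4 occurred in 145 other genes, among them Olfr204 and Cd200r3, and those of H2-T23 in 172. H2-M3 stood apart with 0.576%, so its value is the least open to shared fragments. Taken as pairs, H2-Q6 and H2-Q7 together were at 10.9 and 345.2 FPKM (ratio 31.8) and H2-T10 and H2-T22 together at 26.3 and 267.3 FPKM (ratio 10.2). A shift of fragments within a pair does not alter its sum much where the lengths are alike. The longest coding transcripts of H2-Q6 and H2-Q7 had 2085 and 1523 bases, however. Sharing also reached beyond that pair. H2-Q7 shared 15.2% of its windows with H2-Q5 and 8.34% with H2-D1, and H2-Q6 shared 12.3% with H2-Q4. The sum of H2-Q6 and H2-Q7 is thus still open to fragments of other class I genes. The ratio of H2-Q6 to H2-Q7 itself was 1.33 with vehicle and 1.91 with 4-OHT.

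Both overlapping antisense genes with values were low in each library. Gm11131, opposite to H2-Q4, had 0.669 FPKM in the vehicle library against 3.04 FPKM after 4-OHT, and A930015D03Rik, opposite to H2-T22 and H2-T23, at 0.222 and 0.976 FPKM. H2-T10 overlaps an antisense gene, BC023719, over 1246 bases and a protein-coding gene model on its own strand, Gm7030, over 5590 bases. Neither was analysed here, so how reads were divided between H2-T10 and Gm7030 is not known and the H2-T10 level is uncertain to that extent. Whether counting used the strand is not given in the sources used here, so reads of a gene and of its antisense partner cannot be told apart.

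The 7 genes lie within 1.89 Mb of chromosome 17, where other kinds of genes sit between them. Of 27 named protein-coding genes of other families between the first and the last of the 7, 2 reached 2-fold in the higher direction and 0 in the lower one, with a median change of 0.13. The 2 were Ubd, which encodes the ubiquitin-like protein FAT10 (0.481 and 4.999 FPKM, log2 change 2.02), and Trim26, a ubiquitin ligase (16.1 and 40.8 FPKM, 1.29). Both were singled out after their values were seen. Between H2-K1 and H2-M2, a stretch of 3.49 Mb, 11 of 81 such genes were higher, among them Tap1 and the complement gene Cfb (7.89 and 157 FPKM, 4.15). None of the 81 was lower and 70 lay within 2-fold, so most neighbours of the class I genes did not share the difference. Over all genes that reached 1 FPKM, 5.78% were higher and 3.49% lower. The longer stretch thus held a larger share of higher genes than the whole table.

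**Figure D3:**
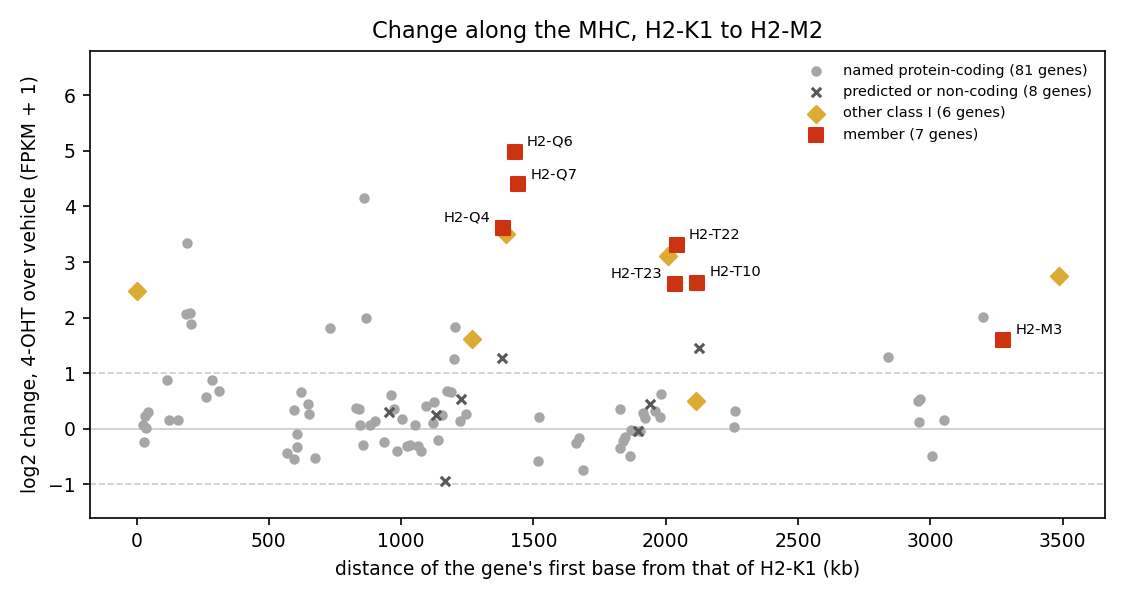
Log2 change (4-OHT over vehicle, FPKM plus 1) of the genes measured at 1 FPKM or more in either library between H2-K1 and H2-M2, against distance from H2-K1 in kilobases; dashed lines mark 2-fold. The 7 genes and most other class I genes stand above the dashed line, while 70 of the 81 named protein-coding genes of other families lie within 2-fold.

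Further class I genes of the Q, T and M regions, from a list of 18, gave 6 in the table and 4 above the minimum, of which 3 were higher. H2-Q5 had 1.78 FPKM in the vehicle library against 30.5 FPKM after 4-OHT (log2 change 3.50), H2-T24 at 4.78 and 48.6 FPKM (3.10) and H2-M2 at 15.4 and 108.7 FPKM (2.75). H2-M2, like H2-M3 a gene of the M region, had a larger change than H2-M3. The pseudogene H2-T-ps was within 2-fold at 1.60 and 2.67 FPKM. H2-Q2 (0.0478 and 0.300 FPKM) and H2-T3 (0.0526 and 0.401 FPKM) stayed below 1 FPKM. In the authors' deposited table H2-T24 had a q-value of 0.707 in spite of its ratio, and H2-T22 and H2-T23 share its deposited locus.

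Class I-like genes outside the MHC did not follow. Of 10 measured, all 10 lay within 2-fold, with a median change of −0.18. Among them were Cd1d1, which presents lipids to NKT cells (14.0 and 10.3 FPKM, −0.41), Mr1, which presents vitamin metabolites to MAIT cells (9.36 and 6.66 FPKM, −0.44), and Fcgrt, the neonatal Fc receptor (58.8 and 42.7 FPKM, −0.45). The ligands of the activating receptor NKG2D were also within 2-fold: Raet1d at 7.55 and 6.95 FPKM (−0.10), Raet1e at 5.40 and 4.93 FPKM (−0.11), H60b at 4.83 and 4.54 FPKM (−0.07) and Ulbp1 at 6.82 and 3.74 FPKM (−0.72). Procr, the endothelial protein C receptor, was the 1 gene above 0 (82.8 and 114.0 FPKM, 0.46).

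The classical heavy chains and the light chain were higher too, from far higher levels. H2-K1 was at 562.3 and 3156 FPKM (log2 change 2.49), H2-D1 at 456.5 and 1403 FPKM (1.62) and B2m at 1770 and 5248 FPKM (1.57). The 7 non-classical genes made up 11.9% of the FPKM of class I heavy chains (these 7 with H2-K1 and H2-D1) with vehicle and 22.8% with 4-OHT. The level of B2m over that of these heavy chains was 1.53 with vehicle and 0.888 with 4-OHT. In the authors' deposited table H2-K1, H2-D1 and B2m had q-values of 0.353, 0.582 and 0.756.

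Of 13 genes that cut, transport or load the peptides, 10 were higher, 3 were within 2-fold and none was lower, with a median change of 1.88. Tap1, a subunit of the peptide transporter on which Qa-1 depends for leader peptides, was at 13.3 and 143.6 FPKM (3.34), and its partner Tap2 at 12.9 and 50.1 FPKM (1.88). Tapbp, which encodes tapasin, was at 73.7 and 356.1 FPKM (2.26) and Erap1, the aminopeptidase that trims peptides, at 31.6 and 92.2 FPKM (1.52). The immunoproteasome subunits Psmb8 (2.09), Psmb9 (2.07) and Psmb10 (2.06) had changes of similar size. The 3 within 2-fold were the general chaperones of the endoplasmic reticulum Canx (355.4 and 376.4 FPKM), Pdia3 (200.8 and 180.2 FPKM) and Calr (603.1 and 421.3 FPKM).

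Of 13 regulators of class I transcription, 5 were higher and the other 8 lay within 2-fold (median 0.85). Nlrc5, the class I transactivator, had 11.8 FPKM in the vehicle library against 69.6 FPKM after 4-OHT (2.47). Its DNA-binding partners Rfx5 (0.45), Rfxap (0.17) and Rfxank (0.33) were within 2-fold. The interferon regulatory factor gene Irf1 was at 51.3 and 212.7 FPKM (2.03) and Irf9 at 19.5 and 60.6 FPKM (1.59). The NF-kB subunit genes Nfkb1 (51.5 and 93.5 FPKM, 0.85) and Rela (31.3 and 52.1 FPKM, 0.72) lay within 2-fold.

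**Figure D4:**
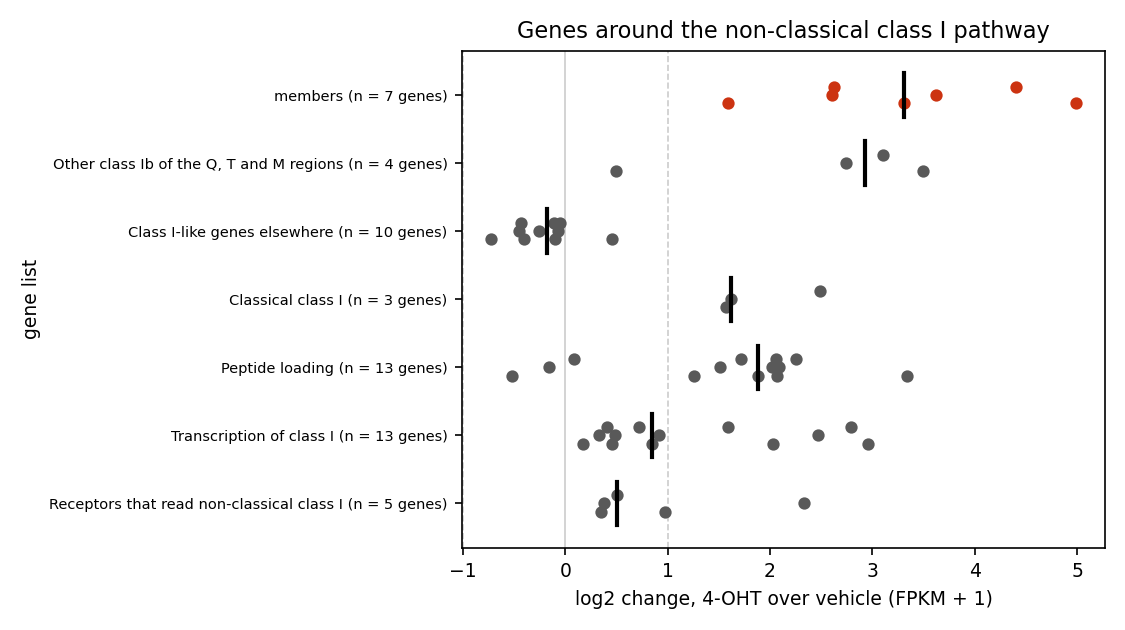
Log2 change (4-OHT over vehicle, FPKM plus 1) of each gene above the minimum, by gene list; black bars mark the list medians and the dashed line marks 2-fold. The 7 non-classical genes have a median of 3.31, peptide loading 1.88, and the class I-like genes elsewhere −0.18.

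Receptors that read class I or class I-like molecules are made by lymphocytes and myeloid cells. Of 12 listed, 6 were in the table, 5 passed the minimum and 1 was higher: Klrk1, which encodes NKG2D, at 0.997 and 9.08 FPKM (2.33). The Qa-1 receptor genes Klrc1 (0.637 and 2.22 FPKM, 0.98) and Klrd1 (0.508 and 1.14 FPKM, 0.50) were low in both libraries. The myeloid receptor genes Pirb (37.3 and 48.8 FPKM) and Lilrb4a (502.9 and 639.6 FPKM) were within 2-fold.

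With 2 libraries, likeness of pattern can be given only as distance between levels, in log2 of FPKM plus 1. The gene nearest to H2-Q4 was Oasl2 (21.0 and 319.2 FPKM, distance 0.19), to H2-Q6 Ifi213 (5.84 and 210.5 FPKM, 0.13) and to H2-Q7 Gbp4 (4.09 and 148.7 FPKM, 0.36). H2-T22 was nearest to Samd9l (21.6 and 229.0 FPKM, 0.21), H2-T23 to Tor3a (67.1 and 335.8 FPKM, 0.24), H2-T10 to the predicted gene Gm1966 (1.96 and 17.4 FPKM, 0.04) and H2-M3 to Peli1 (12.95 and 37.1 FPKM, 0.11). Oasl2, Ifi213, Gbp4 and Samd9l are among the nearest genes known to respond to interferon, and this list of them may not be complete.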

How the data were processed

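RNA-seq of 2 libraries was used, grouped by the treatment in the labels. The authors deposited 1 value per gene and library, in a table whose header names no unit. The deposited values were taken as FPKM from its Cuffdiff layout, the named tools and the whole-fragment steps below. STAR, Cufflinks and GRCm38 are named in the submitters' processing notes, with no versions or roles. The log2 fold change that the authors deposited equals the log2 of FPKM plus 1, 4-OHT over vehicle. The authors also deposited p-values and q-values. The sources used here give neither how their test judged spread with 1 library a group nor how the libraries were scaled.

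All 17145 gene identifiers matched GENCODE M21 (GRCm38), which gave coordinates, types and transcripts. A gene was counted as higher or lower at 2-fold with a pseudocount of 1 and at least 1 FPKM in the higher library. No test was made, since each group had 1 sample. Fragments were recovered from genes with 1 transcript over 600 bases: with 176 and 170 bases subtracted from the length, 96.7% of 212 low values (vehicle) and 98.6% of 210 (4-OHT) lay within 0.1 of a whole fragment, beside 20% by chance. Ratios got exact (Clopper-Pearson) and levels exact Poisson 95% intervals. The ratio intervals had been planned only for genes with 1 annotated transcript, which among the 7 is H2-M3. The recovery and the counting of calls were tested on simulated data. Coding identity came from global alignment (Biopython 1.88) of GENCODE transcripts and stands in for the planned protein comparison, as protein sequences were not used here. Named genes were the 7 genes, all measured genes of the listed pathways and, for each of the 7, the nearest gene by level; neighbours on the chromosome were named after their values were seen. Some listed regulators of class I transcription are counted but not reported by name here. The members and lists were chosen with earlier results of these data known. Alternatives were other pseudocounts, minimums, folds and scalings. Python 3.11.15, pandas 2.3.3 and scipy 1.17.1 were used.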

Additional observations from a re-analysis of the deposited data

How the results depend on the processing

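All 7 genes stayed at least 2-fold higher with pseudocounts of 0.1 and 5, with no minimum, with a minimum of 5 FPKM and after both rescalings; 6 were at least 4-fold higher, and 6 remained when only protein-coding gene models were kept, without H2-T10. The median change of 3.31 became 3.12 with a pseudocount of 5, 3.14 after rescaling to the sum of FPKM and 3.20 after rescaling to the median of genes at 5 FPKM or more in both libraries. Of 28 single-gene values under these settings none changed sign, and all lay between 1.35 and 5.17. Of the 28, 15 moved by more than the counting interval of the gene allows, 1 of them upward. With a pseudocount of 5, the change of H2-T10 went from 2.63 to 1.67. Rescaling to the sum shifted the median of all tested genes from 0.03 to −0.11. Weighted by transcript length, the summed ratio of the 7 genes was 10.4. Counts over the whole table were 784 higher and 473 lower genes, which became 645 and 664 after rescaling to the sum. With 0.1 as pseudocount they were 1011 and 860, with 5 the counts were 457 higher and 164 lower, and at 4-fold they were 294 higher and 78 lower. No paired analysis was possible because each group had 1 library. With 1 library per group, precision beyond counting error cannot be known.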
